A study of Mus musculus with 29 samples.

Results

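Trp53, the gene for the transcription factor p53, and 9 of its well known target genes (Mdm2, Ccng1, Bax, Phlda3, Trp53inp1, Sesn2, Bbc3, Pmaip1 and Plk2) were followed through RNA sequencing libraries of the mouse embryo at E9.0. They were chosen by name, and all 10 were among the 23337 genes counted. All 10 passed the filter on low counts in each of the 6 comparisons made. The 29 libraries, all labelled C57BL/6 and made from explants of Dll1-YFP embryos, fall into 8 groups. DIR (n = 4) and CTRL (n = 4) are Dll1-lineage cells of presomitic mesoderm that were cultured, DIR with the molecules LDN and SAG and CTRL without them, and collected by FACS. SAG activates Smoothened, which passes on Hedgehog signals, and LDN blocks BMP receptors. SOMA (n = 3) are uncultured cells of the same lineage, sorted for YFP, from presomitic mesoderm and the newest somite. SOMB, SOMC and SOMD (n = 4 each) are such cells from successively older somites, numbers 2 to 5, 6 to 9, and 10 onwards (the last one 13 to 16, by replicate). MUT (n = 3) and WT (n = 3) are trunk tissue, with paraxial mesoderm given as its source, that went straight into RNA extraction. The labels name neither the mutated gene nor its zygosity, although the series title names the long non-coding RNA PEAT. They also give no time in culture and do not say whether replicates came from separate embryos, so p-values measure the spread between these samples, which may be partly technical.

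p53 is held at a low level by the ubiquitin ligase Mdm2, which is itself a p53 target and so closes a feedback loop. DNA damage, ribosomal stress and other insults stabilise the p53 protein, which then binds pairs of half-sites near its targets. The targets stop the cell cycle, repair DNA, adjust metabolism or trigger apoptosis through the mitochondrial pore former Bax and the BH3-only proteins Puma (Bbc3) and Noxa (Pmaip1). In the early mouse embryo unchecked p53 activity is known to cause growth defects and death, as in embryos without Mdm2. Several of the same genes answer to other factors too. Sesn2 and Pmaip1 are also known targets of the transcription factor ATF4, the effector of the integrated stress response to amino acid shortage and misfolded protein.

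The promoters of 8 of the 10 genes could be read in RefSeq windows of build GRCm38.p6, each from 250 bases before to 50 bases after a start site. They are shown because the members share a regulator and differ in what their start sites hold. Both strands were searched for the p53 half-site (by its usual consensus), for the cyclic AMP response element TGACGTCA and for TTGCATCA, a composite site known to bind C/EBP and ATF4 pairs. A half-site was found in the windows of Mdm2, Ccng1, Bax and Trp53. Half-sites were in 8.36% of all 32851 windows. Capitals mark the half-site in the following stretches, read 5′ to 3′ on the strand of the gene.
Mdm2, chr10:117710915-117710964, minus strand: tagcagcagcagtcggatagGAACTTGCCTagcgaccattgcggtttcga
Ccng1, chr11:40755442-40755491, minus strand: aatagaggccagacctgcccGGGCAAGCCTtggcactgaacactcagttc
Bax, chr7:45467070-45467119, minus strand: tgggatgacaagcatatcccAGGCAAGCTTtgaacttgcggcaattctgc
Trp53, chr11:69580264-69580313, plus strand: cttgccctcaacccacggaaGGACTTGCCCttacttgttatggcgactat

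Plk2 alone of the 8 held TGACGTCA, which was in 1.79% of all windows. It lies 62 bases before the start site and is in capitals here.
Plk2, chr13:110394962-110395009, plus strand: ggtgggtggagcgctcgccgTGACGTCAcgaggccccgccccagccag
None of the 8 held TTGCATCA, found in 0.895% of all windows, or a pair of exactly matching half-sites at most 13 bases apart, found in 0.0731%. These are exact matches of letters in windows of 300 bases, and response elements in introns or farther upstream were not read. A near match to the half-site, directly before the capitals of the Ccng1 stretch, was therefore not counted, so a full site there is not excluded. Trp53inp1 and Pmaip1 are named only.

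Gene counts came to between 11541131 and 44363411 per library. Levels below are CPM, gene counts scaled to library size with TMM factors set over all 29 libraries. CTRL1, DIR1 and DIR2 stand apart from the other 5 cultured libraries: their multi-mapped share of reads was 22.3 to 25.4%, against 15.9 to 19.5% in the other 5. In these 3 libraries genes of high GC content read lower, so the culture results were also computed without them. SOMC1 with SOMC4 and SOMD1 with SOMD4 differed far less than other pairs of the somite series (chi-square per degree of freedom 1.90 and 1.86, against 8.75 to 39.7 for the others) and were kept as separate samples. The 8 markers of presomitic mesoderm summed to 275 to 729 CPM in DIR, 212 to 441 CPM in CTRL and 534 to 771 CPM in SOMA, and to at most 20.1 CPM in SOMD. Markers of myeloid cells were near 0 in all sorted libraries, while 4 endothelial markers summed to 170 to 290 CPM in DIR, 181 to 242 CPM in CTRL and 43.9 to 163 CPM in SOMA. Endothelial markers were thus higher in cultured than in SOMA libraries; their part in the results was not tested. In such bulk samples fewer cells of a type and less RNA per cell cannot be told apart.

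**Figure D1:**
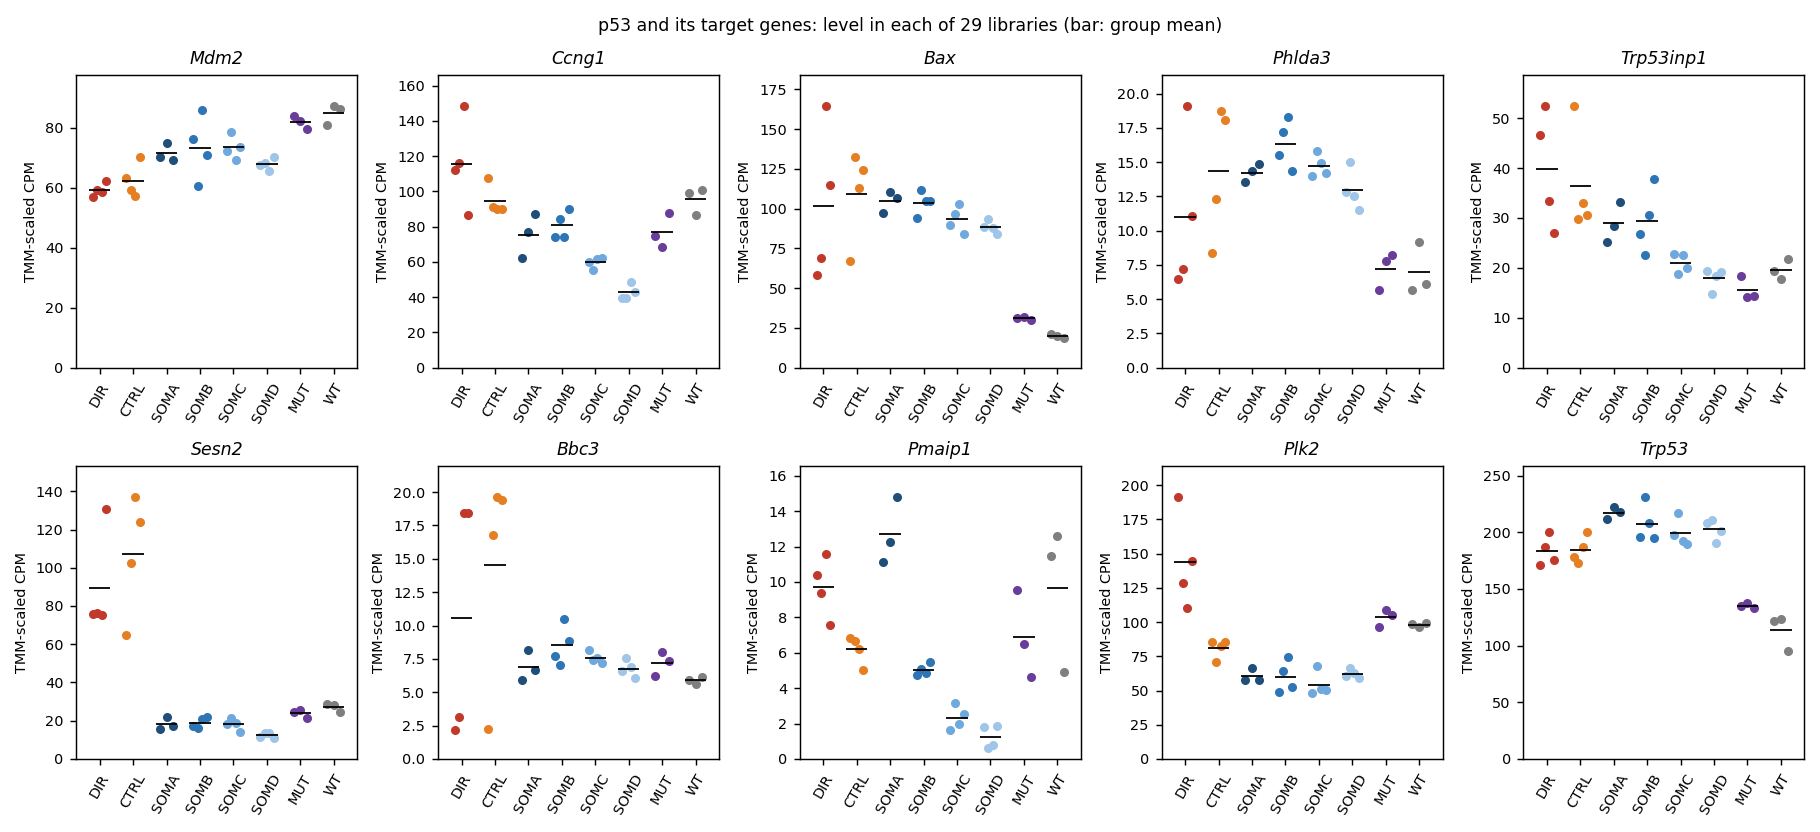
Each panel plots 1 gene in TMM-scaled CPM (vertical axis, linear from 0) by group, with a point per library and a bar at the group mean. Sesn2 lies between 64.7 and 137 CPM in the 8 cultured libraries (DIR and CTRL) and at most 22.1 CPM in the 15 fresh ones, Pmaip1 steps down from SOMA to SOMD, and Bax is at most 31.9 CPM in the 6 trunk libraries.

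Per base of exon, Bax and Trp53 stood highest in the fresh SOMA cells (presomitic mesoderm and newest somite), at 66.5 ± 4.41 and 53.7 ± 1.32 RPKM (SD, n = 3). Ccng1 followed at 21.5 ± 3.62 RPKM. The level was 14.1 ± 0.587 RPKM for Mdm2 and 13.5 ± 1.15 RPKM for Plk2, a difference within their spread. Bbc3 had the lowest level, 3.25 ± 0.551 RPKM. The cells thus held mRNA of p53 and of its apoptotic effector Bax at levels well above those of the BH3-only genes before any culture.

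Over all libraries, few of these genes were called higher after culture of presomitic mesoderm. Without CTRL1, DIR1 and DIR2 more were called higher, as given below with the shares over all genes. With LDN and SAG (DIR), 3 of 10 were higher than in fresh SOMA cells (Sesn2, Plk2 and Ccng1) and 2 were lower (Mdm2 and Trp53), by edgeR's quasi-likelihood test at an adjusted p under 0.05. Of all 14602 genes tested in DIR versus SOMA, 20.1% were called higher and 17.4% lower. Without the molecules (CTRL), 1 of 10 was higher (Sesn2) and 2 were lower (Pmaip1 and Trp53), beside 17% of all genes higher and 12.6% lower in CTRL versus SOMA. The shares of the 10 genes called are not far from those of all genes. The median log2 fold change of the 10 genes was 0.21 in DIR versus SOMA and 0.20 in CTRL versus SOMA, against 0.01 and 0.03 over all genes tested. Both comparisons share the SOMA samples, which also hold the newest somite, whereas the cultured cells came from presomitic mesoderm only.

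In the broader contrast of both cultured groups (n = 8) with all 4 fresh groups (n = 15), each group weighing equally, Sesn2, Pmaip1, Plk2, Ccng1 and Trp53inp1 were higher and Mdm2 and Trp53 lower. There 32.6% of 14602 genes were called higher and 28.8% lower, and 61.4% in either direction, so 7 of 10 called is close to the share over all genes. Without CTRL1, DIR1 and DIR2, 7 members were higher and 2 lower, beside 33.7% and 31.5% of 14688 genes. This contrast also carries the change along the somites, since the cultured cells came from presomitic mesoderm only.

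**Figure D2:**
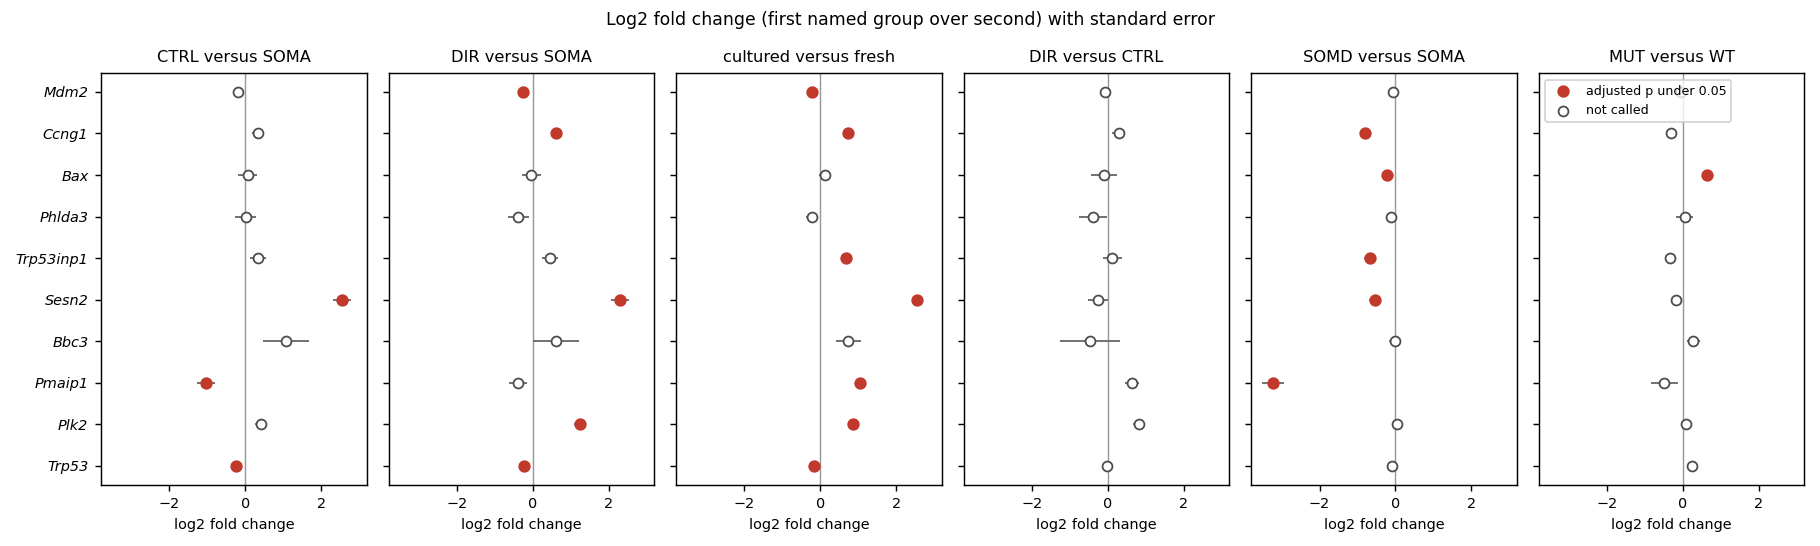
Each panel gives 1 comparison, with the log2 fold change of the first named group over the second on the horizontal axis and 1 gene per row; bars are standard errors and filled points have an adjusted p under 0.05 in edgeR's quasi-likelihood test. Sesn2 has the largest rise in the 3 culture comparisons (log2 fold change 2.29 to 2.55) and Pmaip1 the largest fall along the somites (-3.22).

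Sesn2 encodes sestrin 2, a leucine sensor that restrains the growth kinase complex mTORC1. It had 76.0, 76.2, 75.4 and 131 CPM in DIR, 64.7, 102, 137 and 124 CPM in CTRL, and 15.8, 22.1 and 17.3 CPM in SOMA. Every cultured library lay above every fresh one, with no overlap. The log2 fold change was 2.29 ± 0.24 (SE) in DIR versus SOMA (edgeR adjusted p = 3.82e-07) and 2.54 ± 0.24 in CTRL versus SOMA (edgeR adjusted p = 1.72e-07), which is 4.89-fold and 5.83-fold. Over 11 alternatives of processing and library sets the value was 2.28 to 2.54 in DIR and 2.36 to 2.73 in CTRL. With 1 library left out at a time it was 2.05 (without DIR4) to 2.44 in DIR and 2.41 to 2.72 in CTRL. It was called in each of these fits. Among its relatives, Sesn1, also a p53 target, was higher in CTRL than in SOMA (31.5 ± 1.77 against 22.7 ± 1.31 CPM; log2 fold change 0.48 ± 0.11, edgeR adjusted p = 0.00211).

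The integrated stress response list was chosen with earlier results of these data known. All 14 genes were called higher in DIR than in SOMA, with a median log2 fold change of 2.00, beside 20.1% of all genes. All 14 were also called higher in CTRL than in SOMA, with a median of 1.81, beside 17% of all genes. The all-gene medians were 0.01 and 0.03. Chac1, a glutathione-degrading enzyme induced by ATF4, averaged 53.8 ± 20.2 CPM in DIR, 58.3 ± 20.8 CPM in CTRL and 0.181 ± 0.0623 CPM in SOMA (log2 fold change 8.22 ± 0.47 and 8.33 ± 0.47, edgeR adjusted p = 9.21e-11 and 9.98e-11). Trib3, a pseudokinase that feeds back on ATF4, averaged 39.7 ± 15.3 CPM in DIR, 32.7 ± 9.54 CPM in CTRL and 0.947 ± 0.167 CPM in SOMA. Asns, the asparagine synthetase, averaged 505 ± 92.5 CPM in DIR against 92.7 ± 14.8 CPM in SOMA (log2 fold change 2.44 ± 0.15, edgeR adjusted p = 1.80e-10). Vldlr, a lipoprotein receptor, averaged 86.2 ± 10.3 CPM in CTRL against 11.4 ± 2.71 CPM in SOMA (log2 fold change 2.93 ± 0.20, edgeR adjusted p = 2.04e-09). Without CTRL1, DIR1 and DIR2 the counts were 14 of 14 in DIR and 13 of 14 in CTRL, beside 23.2% and 22.3% of all genes.

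**Figure D3:**
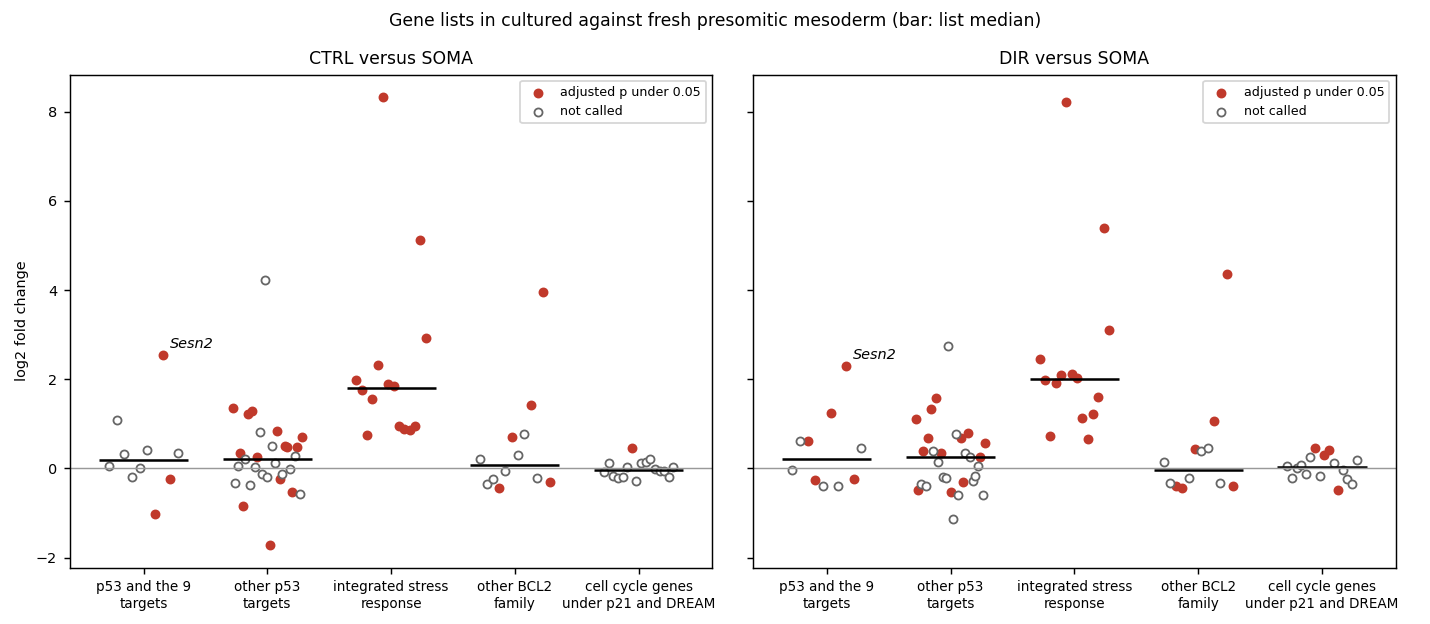
Log2 fold changes (vertical axis) of the genes of 5 lists in CTRL versus SOMA (left panel) and DIR versus SOMA (right panel); filled points have an edgeR adjusted p under 0.05 and bars are list medians. The 14 integrated stress response genes are all called higher, with medians of 1.81 and 2.00, and the medians of the 10 p53 genes are 0.20 and 0.21. Sesn2 is marked by name, and which regulator its rise came from was not tested.

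Mdm2, the feedback ligase, had 57.1, 59.4, 58.6 and 62.4 CPM in DIR, 63.2, 59.2, 57.2 and 70.2 CPM in CTRL, and 70.3, 74.99 and 69.5 CPM in SOMA. All DIR libraries were below all SOMA libraries, while CTRL4 reached the SOMA range. For Mdm2 the log2 fold change was -0.27 ± 0.10 in DIR versus SOMA (edgeR adjusted p = 0.0327) and -0.19 ± 0.10 in CTRL versus SOMA (edgeR adjusted p = 0.142). The DIR call was lost when any 1 of DIR1, DIR2, DIR3, SOMA1, SOMA3 or SOMA4 was left out (log2 fold change -0.29 to -0.23, edgeR adjusted p 0.0530 to 0.123).

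Trp53 itself had 171, 187, 200 and 176 CPM in DIR, 178, 173, 187 and 201 CPM in CTRL, and 212, 223 and 218 CPM in SOMA. All 8 cultured libraries lay below all 3 of SOMA. For Trp53 the log2 fold change was -0.24 ± 0.08 in DIR (edgeR adjusted p = 0.0195) and -0.23 ± 0.08 in CTRL (edgeR adjusted p = 0.0317). The CTRL call was lost without any 1 of CTRL1, CTRL2, CTRL3, SOMA1, SOMA3 or SOMA4 (-0.25 to -0.21, edgeR adjusted p 0.0539 to 0.106), and the DIR call without DIR1, SOMA3 or SOMA4 (-0.24 to -0.20, edgeR adjusted p 0.0503 to 0.0745). In the broader contrast of cultured with fresh cells both genes kept their calls without any 1 library, Mdm2 at -0.23 ± 0.06 (edgeR adjusted p = 0.00128) and Trp53 at -0.16 ± 0.05 (edgeR adjusted p = 0.00399).

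Ccng1 encodes cyclin G1, a p53 target known to bring a phosphatase to Mdm2. It had 112, 116, 148 and 86.3 CPM in DIR, 108, 90.9, 90.0 and 90.0 CPM in CTRL, and 61.9, 77.0 and 87.2 CPM in SOMA. DIR4 lay within the SOMA range, and all CTRL libraries were above it. For Ccng1 the log2 fold change was 0.62 ± 0.14 in DIR (edgeR adjusted p = 0.00193) and 0.33 ± 0.14 in CTRL, not called (edgeR adjusted p = 0.0819).

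Plk2, a polo-like kinase of centriole duplication, had 191, 128, 110 and 144 CPM in DIR, 85.3, 71.1, 82.3 and 85.2 CPM in CTRL, and 57.5, 66.6 and 57.8 CPM in SOMA. The 3 groups did not overlap. The rise over SOMA was 1.24 ± 0.16 on the log2 scale in DIR (edgeR adjusted p = 6.07e-06), which is 2.36-fold. In CTRL the value was 0.42 ± 0.16, at an edgeR adjusted p of 0.0508, and it was called in 6 of 11 alternatives (adjusted p 0.0257 to 0.0992 over all 11).

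Bbc3 (Puma) had 18.4 and 18.4 CPM in DIR3 and DIR4 and 16.8, 19.6 and 19.4 CPM in CTRL2, CTRL3 and CTRL4, but 2.16 and 3.13 CPM in DIR1 and DIR2 and 2.23 CPM in CTRL1. SOMA libraries had 5.89, 8.19 and 6.64 CPM, and all 15 fresh libraries lay between 5.89 and 10.5 CPM. The 5 cultured libraries of low multi-mapped share were thus above every fresh library, and the 3 of high share below every fresh library. Over all libraries the difference was not called (0.61 ± 0.60 in DIR, edgeR adjusted p = 0.445; 1.07 ± 0.61 in CTRL, edgeR adjusted p = 0.193). Without CTRL1, DIR1 and DIR2, a setting chosen after seeing the data, the log2 fold change was 1.44 in both (edgeR adjusted p = 1.31e-06 in DIR and 4.94e-07 in CTRL). Leaving out CTRL1 alone also gave a call in CTRL (1.44, edgeR adjusted p = 0.0374).

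Bax had 58.0, 68.9, 165 and 115 CPM in DIR, 67.2, 132, 113 and 125 CPM in CTRL, and 97.1, 111 and 107 CPM in SOMA. Its lowest cultured libraries were again DIR1, DIR2 and CTRL1, and the other 5 lay above all fresh libraries, which reached 112 CPM. Neither comparison with SOMA was called over all libraries (-0.04 ± 0.25 in DIR, edgeR adjusted p = 0.910; 0.06 ± 0.25 in CTRL, edgeR adjusted p = 0.879). Without the 3 libraries the value in DIR turned to 0.43 (edgeR adjusted p = 0.00780), while in CTRL it was 0.24 (edgeR adjusted p = 0.0871).

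Phlda3, a repressor of the survival kinase Akt, had 6.51, 7.19, 19.1 and 11.1 CPM in DIR, 8.40, 12.3, 18.7 and 18.1 CPM in CTRL, and 13.5, 14.3 and 14.9 CPM in SOMA. It was not called in DIR (-0.39 ± 0.28, edgeR adjusted p = 0.288) or CTRL (0.01 ± 0.28, edgeR adjusted p = 0.983). Without DIR3, the highest DIR library, the value in DIR was -0.79 (edgeR adjusted p = 0.0105), and without CTRL1, DIR1 and DIR2 it turned to 0.09 (edgeR adjusted p = 0.724). Trp53inp1, a stress protein that works with p53 in cell cycle arrest and autophagy, went the other way by library, with 46.6, 52.4, 33.5 and 26.9 CPM in DIR, 52.4, 29.9, 33.0 and 30.6 CPM in CTRL, and 25.1, 28.4 and 33.2 CPM in SOMA. Its log2 fold change was 0.46 ± 0.22 in DIR (edgeR adjusted p = 0.0989) and 0.34 ± 0.22 in CTRL (edgeR adjusted p = 0.249), and without the 3 libraries it was 0.08 in DIR and 0.11 in CTRL. Leaving out DIR4 alone gave a call in DIR (0.61, edgeR adjusted p = 0.0260).

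These 4 genes lie at the ends of the range of GC content, and so do Sesn2 (58.7% GC) and Ccng1 (40.8%). The longest transcript of Bbc3 is 65.2% GC, that of Bax 63.5% and that of Phlda3 62.6%, while that of Trp53inp1 is 38.8%. Over all genes the difference of CTRL1, DIR1 and DIR2 from the other 5 cultured libraries ran from a median log2 of 0.41 in the decile of genes lowest in GC to -0.81 in the highest decile. Bbc3 stood at -2.68, Bax at -0.99, Phlda3 at -1.03 and Trp53inp1 at 0.71 on the same scale, with Sesn2 at -0.62 and Ccng1 at 0.18. Bbc3 thus lay below the lower quartile of its decile (-1.17), Bax and Phlda3 within the quartiles, and Trp53inp1 above the upper quartile of the lowest decile (0.58). With a trend over length and GC content removed from each library, Bbc3 was called higher in DIR (0.81, edgeR adjusted p = 0.0176) and in CTRL (0.95, edgeR adjusted p = 0.00735), a setting also chosen after seeing the data. With the multi-mapped share as a term its value was 0.79 in DIR (edgeR adjusted p = 0.0248) and 0.11 in CTRL (edgeR adjusted p = 0.778). Of 11 alternatives, 3 called Bbc3 in DIR and 2 in CTRL, and the 2 in CTRL were both chosen after seeing the data. Whether the difference between these libraries arose in the cells or in the making of the libraries was not tested.

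**Figure D4:**
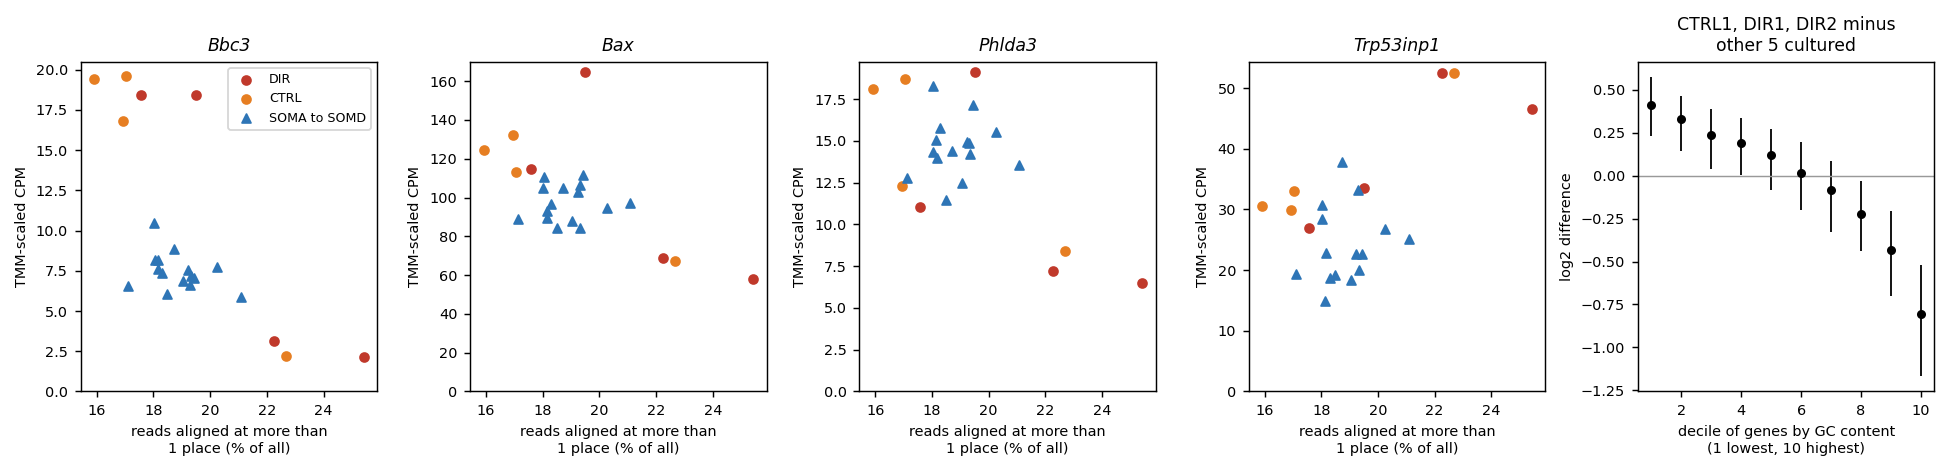
The first 4 panels plot TMM-scaled CPM (vertical axis) of Bbc3, Bax, Phlda3 and Trp53inp1 against the share of multi-mapped reads (horizontal axis) in the cultured (circles) and fresh (triangles) libraries; the last panel gives, per decile of genes by GC content, the median and quartiles of the log2 difference of CTRL1, DIR1 and DIR2 from the other 5 cultured libraries. The 3 libraries of high share have the lowest Bbc3 (2.16 to 3.13 CPM), Bax and Phlda3 and the highest Trp53inp1, and the median falls from 0.41 in the lowest GC decile to -0.81 in the highest.

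Pmaip1 (Noxa) had 10.4, 9.35, 11.6 and 7.56 CPM in DIR, 6.84, 6.69, 6.24 and 5.00 CPM in CTRL, and 11.1, 12.3 and 14.8 CPM in SOMA. All CTRL libraries were below all SOMA libraries, whereas DIR overlapped with SOMA. For Pmaip1 the log2 fold change was -1.03 ± 0.24 in CTRL versus SOMA (edgeR adjusted p = 0.00262, called in all 11 alternatives and without any 1 library) and -0.39 ± 0.24 in DIR versus SOMA (edgeR adjusted p = 0.206). Against the mean of all 4 fresh groups Pmaip1 was higher in culture (1.05 ± 0.14, edgeR adjusted p = 1.83e-06). The older somites held little of it, and the sign of its difference thus depends on which fresh cells the cultured ones are set against. Markers of presomitic mesoderm were likewise lower in CTRL than in SOMA; their part in the difference was not tested.

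Without CTRL1, DIR1 and DIR2 the count of members called higher was 5 in DIR versus SOMA (Sesn2, Plk2, Ccng1, Bbc3 and Bax) and 3 in CTRL versus SOMA (Sesn2, Bbc3 and Plk2). Pmaip1 and Trp53 stayed lower in CTRL, while Mdm2 and Trp53 were no longer called in DIR (edgeR adjusted p = 0.117 and 0.0817). In that setting 23.2% of 14688 genes were called higher and 20.7% lower in DIR versus SOMA, and 22.3% higher and 19.1% lower in CTRL versus SOMA.

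Of 29 further p53 targets, 10 were higher and 3 lower in DIR than in SOMA, and 10 were higher and 4 lower in CTRL than in SOMA (12 and 3, and 11 and 6, without the 3 libraries). Over all genes, 20.1% were higher and 17.4% lower in DIR versus SOMA, and 17% and 12.6% in CTRL versus SOMA. Without the 3 libraries these shares were 23.2% and 20.7% in DIR, and 22.3% and 19.1% in CTRL. Their median log2 fold change was 0.26 in DIR and 0.20 in CTRL. Eda2r, a member of the TNF receptor family, averaged 40.3 ± 9.46 CPM in DIR, 32.9 ± 6.17 CPM in CTRL and 13.6 ± 2.59 CPM in SOMA (log2 fold change 1.57 ± 0.19 and 1.28 ± 0.19, edgeR adjusted p = 2.08e-06 and 2.93e-05). Abhd4, a lipid hydrolase, averaged 51.8 ± 3.48 CPM in DIR, 60.6 ± 3.34 CPM in CTRL and 23.9 ± 0.476 CPM in SOMA. Ddb2, which recognises ultraviolet damage in DNA, averaged 10.0 ± 0.622 CPM in DIR against 3.97 ± 0.283 CPM in SOMA (1.33 ± 0.21, edgeR adjusted p = 4.74e-05). Xpc, another gene of damage recognition, averaged 47.7 ± 2.05 CPM in CTRL against 34.4 ± 0.523 CPM in SOMA (0.48 ± 0.07, edgeR adjusted p = 5.24e-05). Cdkn1a, the gene of the cell cycle inhibitor p21, was named after its values were seen. It was higher in DIR than in SOMA (29.3 ± 6.01 against 18.2 ± 6.12 CPM; 0.69 ± 0.23, edgeR adjusted p = 0.0244), but not called in CTRL (20.8 ± 4.29 CPM; 0.20 ± 0.23, edgeR adjusted p = 0.556).

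Among 12 other BCL2 family genes, 3 were higher and 3 lower in DIR than in SOMA, and 3 were higher and 2 lower in CTRL than in SOMA. These counts and those of the lists that follow stand beside 20.1% of all genes higher and 17.4% lower in DIR versus SOMA, and 17% and 12.6% in CTRL versus SOMA, and nothing particular to the lists is read from them. The BH3-only gene Hrk averaged 8.17 ± 2.56 CPM in DIR, 6.23 ± 1.11 CPM in CTRL and 0.352 ± 0.256 CPM in SOMA (log2 fold change 4.35 ± 0.37 and 3.97 ± 0.37, edgeR adjusted p = 2.58e-08 and 1.19e-07). Bmf, another BH3-only gene, averaged 56.1 ± 5.54 CPM in DIR, 71.6 ± 4.93 CPM in CTRL and 26.9 ± 4.14 CPM in SOMA. Mcl1, a survival factor of the family, was lower in DIR than in SOMA (148 ± 12.4 against 196 ± 16.1 CPM; -0.40 ± 0.08, edgeR adjusted p = 8.26e-04).

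Of 17 tested regulators of p53, 3 were higher and 2 lower in DIR than in SOMA, and 1 was higher and 2 lower in CTRL than in SOMA. Chek2, a checkpoint kinase that phosphorylates p53, was higher (46.7 ± 2.19 CPM in DIR, 48.3 ± 3.16 CPM in CTRL, 34.3 ± 0.652 CPM in SOMA), and Hipk2, another p53 kinase, was lower (35.5 ± 4.40 CPM in DIR, 44.8 ± 7.20 CPM in CTRL, 70.3 ± 0.927 CPM in SOMA). Of 11 tested family relatives of the members, 2 were lower in DIR than in SOMA (Phlda1 and Trp53inp2), and 1 was higher (Sesn1) and 1 lower (Trp53inp2) in CTRL than in SOMA. Trp53inp2, the relative of Trp53inp1, was lower in both cultured groups (14.1 ± 3.67 CPM in DIR, 11.8 ± 1.57 CPM in CTRL, 19.3 ± 1.58 CPM in SOMA). Of 16 cell cycle genes that p53 is known to lower through p21 and the DREAM complex, 3 were higher and 1 (Foxm1) lower in DIR than in SOMA, while 1 (Ccnb2) was higher in CTRL than in SOMA. Ccnb2, cyclin B2, averaged 113 ± 15.9 CPM in DIR, 113 ± 13.0 CPM in CTRL and 82.4 ± 5.35 CPM in SOMA. Of 15 immediate early and heat shock genes, 6 were lower in DIR than in SOMA, and 3 were higher and 1 lower in CTRL than in SOMA. Jun, a subunit of the factor AP-1, averaged 31.7 ± 9.17 CPM in DIR against 97.0 ± 37.3 CPM in SOMA (-1.62 ± 0.33, edgeR adjusted p = 6.70e-04).

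Within culture, DIR and CTRL differ by their labels in LDN and SAG. The libraries of high multi-mapped share (DIR1, DIR2 and CTRL1) also fall unevenly between them. By edgeR's quasi-likelihood test 0 of 10 members were called, and 2 had an unadjusted p under 0.05 (Plk2 and Pmaip1, both higher in DIR). DESeq2 called those 2, and over all genes it called 207 higher and 290 lower. Of all 14190 genes tested in DIR versus CTRL, edgeR called 0.303% higher and 0.444% lower, which is 43 and 63 genes. With 1 library left out the edgeR counts ran from 16 to 47 higher and from 24 to 61 lower, both lowest without CTRL4. For Plk2 every DIR library (110 to 191 CPM) was above every CTRL library (71.1 to 85.3 CPM), a log2 fold change of 0.82 ± 0.16 at an edgeR adjusted p of 0.0606. Plk2 was called in 5 of 9 alternatives, among them the one without CTRL1, DIR1 and DIR2 (0.69, edgeR adjusted p = 0.0347, beside 0.734% of genes higher and 1.04% lower), and when DIR3 was left out (0.93, edgeR adjusted p = 0.0369). For Pmaip1 every DIR library (7.56 to 11.6 CPM) was also above every CTRL library (5.00 to 6.84 CPM), at 0.64 ± 0.18 and an edgeR adjusted p of 0.175. The other 8 overlapped between DIR and CTRL. How many of all genes did not overlap was not counted, so nothing particular to the members is read from this. The 4 lateral plate markers summed to 26.4 to 47.0 CPM in DIR and to 89.7 to 177 CPM in CTRL; their part in these differences was not tested. Among the immediate early genes, Fos was lower in DIR than in CTRL (-1.50 ± 0.25, edgeR adjusted p = 0.0289), as was Fosb (-2.17 ± 0.39, edgeR adjusted p = 0.0454). The integrated stress response list had 0 of 14 genes called, with 2 higher at an unadjusted p under 0.05 and 0 called by DESeq2. Of the 28 further p53 targets tested, edgeR called 0, with 4 higher and 3 lower at an unadjusted p under 0.05, and DESeq2 also called 0. The Sesn2 difference between DIR and CTRL was -0.26 ± 0.26 (edgeR adjusted p = 0.658).

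Along the fresh somites 5 of 10 members were lower at the old end, SOMD, than in SOMA: Pmaip1, Ccng1, Trp53inp1, Sesn2 and Bax. None was higher by edgeR, at an unadjusted p under 0.05 or by DESeq2. Over all 13790 genes tested 8.92% were lower and 10.8% higher in SOMD versus SOMA. The median log2 fold change of the members was -0.18, against 0.00 over all genes.

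Pmaip1 showed the largest difference. Its level stepped from 11.1, 12.3 and 14.8 CPM in SOMA through 4.76, 5.08, 4.86 and 5.46 CPM in SOMB and 1.64, 3.17, 1.95 and 2.57 CPM in SOMC to 1.79, 0.604, 0.771 and 1.85 CPM in SOMD. SOMA, SOMB and SOMC did not overlap with each other, while SOMC and SOMD did. The log2 fold change of SOMD over SOMA was -3.22 ± 0.28 (edgeR adjusted p = 7.04e-07), and it stayed between -3.35 and -3.08 over the 8 alternatives.

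Ccng1 averaged 75.4 ± 12.7 CPM in SOMA, 80.7 ± 7.94 CPM in SOMB, 59.9 ± 3.13 CPM in SOMC and 42.7 ± 4.19 CPM in SOMD. SOMA and SOMB overlapped, and SOMC and SOMD lay below all SOMB libraries. The log2 fold change of SOMD over SOMA was -0.80 ± 0.11 (edgeR adjusted p = 4.56e-05). Trp53inp1 averaged 28.9 ± 4.10 CPM in SOMA, 29.5 ± 6.49 CPM in SOMB, 21.1 ± 2.00 CPM in SOMC and 17.9 ± 2.11 CPM in SOMD (-0.66 ± 0.15 for SOMD over SOMA, edgeR adjusted p = 0.00499). For Pmaip1, Ccng1 and Trp53inp1 the call held in all 8 alternatives and without any 1 library.

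The falls of Sesn2 and Bax were less firm. Sesn2 averaged 12.5 ± 1.21 CPM in SOMD against 18.4 ± 3.26 CPM in SOMA (-0.54 ± 0.16, edgeR adjusted p = 0.0219), and its call was lost without SOMA3, SOMD1 or SOMD4 (-0.51 to -0.39, edgeR adjusted p 0.0595 to 0.132). Bax averaged 88.5 ± 3.78 CPM in SOMD against 105 ± 6.95 CPM in SOMA (-0.23 ± 0.08, edgeR adjusted p = 0.0471), and its call was lost without SOMA3, SOMA4, SOMD1, SOMD3 or SOMD4 (-0.23 to -0.18, edgeR adjusted p 0.0781 to 0.207). With the nearly identical pairs SOMC1 with SOMC4 and SOMD1 with SOMD4 summed, 3 members were lower, without Sesn2 (adjusted p = 0.0581) and Bax (adjusted p = 0.108).

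The other 5 stayed within small differences. Mdm2 had 67.6, 68.3, 65.6 and 70.2 CPM in SOMD, near its SOMA values (-0.06 ± 0.10, edgeR adjusted p = 0.726), and Trp53 averaged 203 ± 8.84 CPM in SOMD against 217 ± 5.33 CPM in SOMA (-0.08 ± 0.07, edgeR adjusted p = 0.439). Plk2 (0.05 ± 0.14), Bbc3 (-0.01 ± 0.16) and Phlda3 (-0.13 ± 0.11) were not called either.

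Of 27 further p53 targets tested along the somites, 6 were lower and 1 higher in SOMD than in SOMA, beside 8.92% of all genes lower and 10.8% higher. The lower ones included Ddit4, an mTORC1 inhibitor of hypoxia and damage (26.4 ± 2.29 against 101 ± 8.21 CPM; -1.91 ± 0.11, edgeR adjusted p = 1.45e-08), Btg2, an antiproliferative factor (11.2 ± 3.19 against 70.3 ± 23.1 CPM; -2.64 ± 0.22, edgeR adjusted p = 5.44e-07), and Cdkn1a (8.47 ± 1.45 against 18.2 ± 6.12 CPM; -1.06 ± 0.23, edgeR adjusted p = 0.00380). Among the family relatives Phlda2 was lower in SOMD than in SOMA (3.15 ± 0.815 against 20.7 ± 6.14 CPM; -2.72 ± 0.38, edgeR adjusted p = 6.72e-05), whereas Phlda1 was higher (52.2 ± 2.24 against 30.4 ± 3.84 CPM; 0.79 ± 0.10, edgeR adjusted p = 3.28e-05). Of the 13 integrated stress response genes tested, 1 was higher (Herpud1, an ER-associated degradation gene) and 1 lower (Asns). With 1 library left out these counts ran from 1 to 2 higher and from 0 to 2 lower.

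In trunk tissue, Bax was the 1 member of 10 called between MUT and WT. Of 14485 genes tested, 0.331% were called higher and 0.0069% (a single gene) lower in MUT versus WT. These counts, 48 and 1, hang on single libraries: without MUT1, MUT2, MUT3, WT1 or WT2 at most 3 genes were higher and 4 lower, and without WT3 69 were higher and 19 lower. Bax had 31.5, 31.9 and 29.8 CPM in MUT, against 21.4, 19.6 and 18.5 CPM in WT, with no overlap. The log2 fold change was 0.64 ± 0.10, which is 1.56-fold, at an edgeR adjusted p of 0.0427. The value was 0.59 to 0.70 without any 1 library, but the call was lost without MUT1, MUT2, MUT3, WT1 or WT2 (edgeR adjusted p 0.0919 to 0.136) and kept only without WT3 (0.0485).

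Embryo sex and gene length moved with the genotype. MUT2 and MUT3 had 1812 and 1811 CPM of Xist, the RNA of the inactive X chromosome, whereas MUT1 had 2.13 CPM and WT libraries 2.96, 3.46 and 10.7 CPM. With Xist as a term the Bax value was 0.68 (edgeR adjusted p = 0.136), and in MUT1 against the 3 WT libraries, where the lone MUT1 is taken to vary like the WT libraries, it was 0.67 (edgeR adjusted p = 0.370). Over all genes the median log2 fold change ran from 0.20 in the decile of shortest exon length to -0.10 in the decile of longest, and from -0.13 to 0.12 with rising GC content. Bax is among the short and GC-rich genes, with 1576 bases of exon, and with a trend over length and GC removed its value was 0.47 (edgeR adjusted p = 0.102). In a fit of all 29 libraries it was 0.64 at an adjusted p of 0.422. The 5 somite markers summed to 451 to 497 CPM in MUT and to 403 to 415 CPM in WT; their part in the Bax difference was not tested. Bax shares 192 bases of exon with the gene model Gm45808, which is not among the counted genes.

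The other 9 members were not called in MUT versus WT. None was lower by edgeR, with 2 at an unadjusted p under 0.05 (Ccng1 and Trp53inp1) and 1 called by DESeq2 (Ccng1). Over all genes DESeq2 called 482 higher and 228 lower in MUT versus WT. Ccng1 had 74.7, 68.4 and 87.5 CPM in MUT, against 99.1, 86.8 and 101 CPM in WT, with MUT3 just above WT2 (-0.32 ± 0.10, edgeR adjusted p = 0.163; DESeq2 adjusted p = 0.0343). Trp53 had 135, 137 and 133 CPM in MUT, against 122, 123 and 95.5 CPM in WT (0.25 ± 0.09, edgeR adjusted p = 0.236). Trp53inp1 had 18.3, 14.1 and 14.4 CPM in MUT, against 19.4, 17.9 and 21.8 CPM in WT (-0.34 ± 0.14, edgeR adjusted p = 0.285). Mdm2, the p53 feedback gene, averaged 82.1 ± 2.15 CPM in MUT and 84.9 ± 3.43 CPM in WT (-0.05 ± 0.06, edgeR adjusted p = 0.760). Bbc3 was above all WT libraries (5.61 to 6.14 CPM) in all MUT libraries (6.19 to 8.02 CPM), at 0.28 ± 0.18 and an edgeR adjusted p of 0.515. The share of all genes without overlap between MUT and WT was not counted either. Pmaip1 varied within both groups, with 9.55, 6.51 and 4.61 CPM in MUT, against 11.5, 12.6 and 4.93 CPM in WT. Sesn2 (-0.19 ± 0.11), Plk2 (0.07 ± 0.06) and Phlda3 (0.04 ± 0.23) overlapped between MUT and WT. Of 27 further p53 targets tested edgeR called 0, with 2 higher and 5 lower at an unadjusted p under 0.05, and DESeq2 called 1 lower. Of the 14 integrated stress response genes edgeR called 0, with 3 higher at an unadjusted p under 0.05, and DESeq2 called 2 higher.

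**Figure D5:**
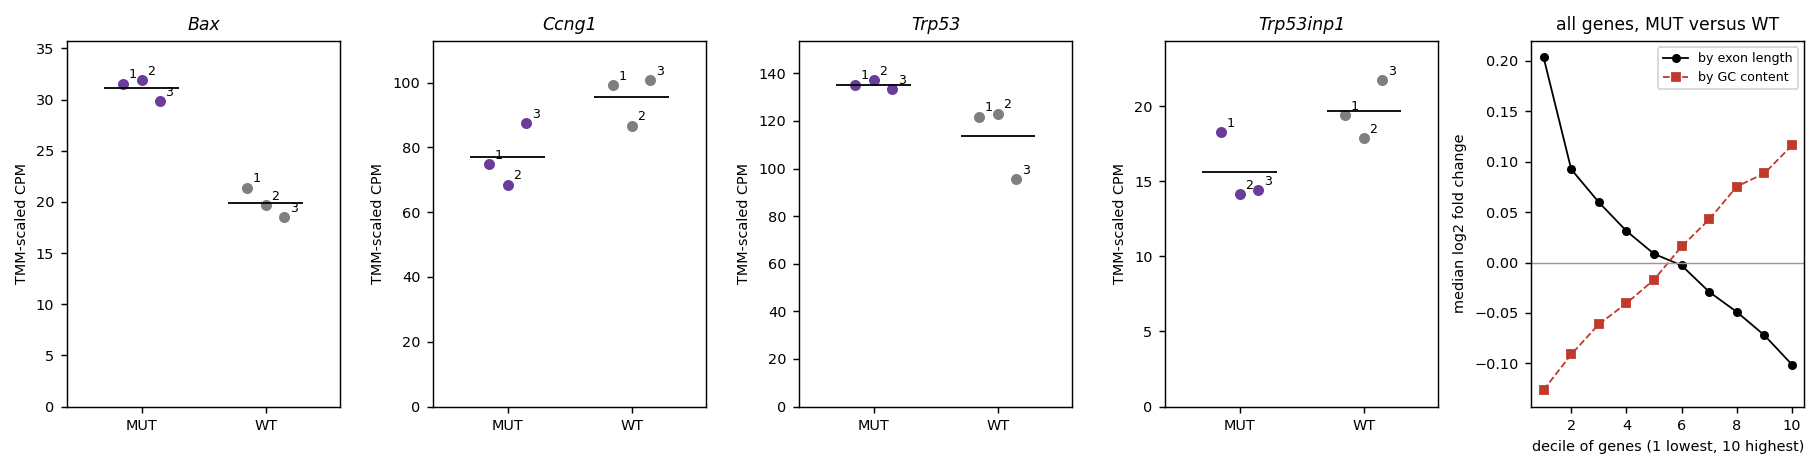
TMM-scaled CPM of 4 genes in the MUT and WT trunk libraries (points, numbered by replicate; bars, group means), and in the last panel the median log2 fold change of MUT over WT per decile of all genes by exon length and by GC content. Bax is higher in all 3 MUT libraries (29.8 to 31.9 CPM) than in all 3 WT libraries (18.5 to 21.4 CPM), and the medians run from 0.20 to -0.10 with length and from -0.13 to 0.12 with GC content.

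Levels in trunk tissue and in sorted cells were not tested against each other, since RNA was taken directly from the one and after cell sorting from the other. Trunk libraries also held markers of other tissues, with 5 erythroid markers summing to 1472 to 2710 CPM in MUT and 958 to 2263 CPM in WT, and to at most 84.8 CPM in sorted libraries. The share of multi-mapped reads was 40.1 to 40.6% in MUT and 38.8 to 39.6% in WT. Bax lay between 18.5 and 31.9 CPM in the 6 trunk libraries, and between 58.0 and 165 CPM in the 23 sorted ones. Trp53 was likewise lower in every trunk library (95.5 to 137 CPM) than in every sorted library (171 to 231 CPM).

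Some pairs of members varied together over the 23 sorted libraries, with a Pearson r in log2 CPM of 0.892 for Bax and Bbc3, 0.864 for Ccng1 and Trp53inp1, 0.806 for Ccng1 and Pmaip1, 0.780 for Bax and Phlda3, and 0.730 for Phlda3 and Bbc3. Other pairs ran against each other, with -0.616 for Sesn2 and Trp53 and -0.613 for Mdm2 and Sesn2. These libraries share culture, somite position and the differences by GC content given above. Among the 100 genes most correlated with each member over all 29 libraries, other members appeared only for Ccng1 and Pmaip1, 1 gene each. In log2 CPM the genes most like Mdm2 were 2810046L04Rik (Pearson r = 0.905), Lrp2 (0.905) and 9830001H06Rik (0.899). The genes most like Ccng1 were Snx10 (0.877), Atp6v1h (0.876) and Atp6v1a (0.872), and those most like Trp53 were U2af1l4 (0.953), Got2 (0.952) and Ruvbl1 (0.950). These values describe 10483 genes across 29 libraries that share tissue type, handling and depth, and carry no test.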

How the data were processed

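Trizol RNA was made into libraries by the TruSeq RNA v2 protocol, amplified in 11 PCR rounds, per the labels' protocols; this kit does not mark strand. The deposited files hold integer counts of reads per gene made by the authors, and the tools named are TopHat2 2.0.9, Cufflinks, HTSeq 0.6 and DESeq2 1.10, with mm10, per the submitters' processing notes; the annotation is not given in the sources used here. Levels of near-identical copies can be split by such counting. Multi-mapped reads are HTSeq's non-unique line, which may count alignments, and this and the other HTSeq summary lines stayed out of library sizes (non-unique 15.9 to 40.6%).

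Genes were kept by filterByExpr (minimum count 10, total 15). With TMM factors, edgeR 4.0.16 (R 4.3.3) gave quasi-likelihood tests (prior count 0.125); p-values were adjusted over the whole table by Benjamini-Hochberg, and 0.05 was the threshold. The 6 sorted groups were fitted together for the culture comparisons, the 4 SOM groups for SOMD versus SOMA, and DIR with CTRL and MUT with WT each in a fit of their own. RPKM used GENCODE M21 exon lengths, and GC content its longest transcripts; 22800 of 23337 symbols matched 1 gene, and all 10 members did. The fit was also run on simulated counts with the same spread for every gene and no difference between libraries by GC content. That run checks the code and cannot support the calls made here. Named were all 10 members, up to 3 called genes of lowest p per list and comparison, and the 3 genes most correlated with Mdm2, Ccng1 and Trp53. Tigar and Pidd1 were matched by RefSeq synonyms. The members, the 7 lists and the comparisons were chosen with earlier results of these data known. Alternatives were other scalings, no filter, DESeq2 1.42.0, other sets of libraries, added terms, a replicate block and each library left out; those without CTRL1, DIR1 and DIR2 (except in DIR versus CTRL), with low Xist only, and with the length and GC trend removed were chosen after seeing the data. Where 1 library was left in a group, it was taken to vary like the others.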

Additional observations from a re-analysis of the deposited data

Results flagged for a closer look

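Of 50 sets of 4 libraries (10 genes in the 5 groups of 4), 5 held a single library far from the other 3, by the gap to its nearest neighbour as a share of the whole range (Dixon's 95% limit for 4 values). Chance flags about 1 in 20 such sets. CTRL1 did so for 3 genes: Ccng1 (107.7 CPM, next 90.9; share 0.947), Trp53inp1 (52.4 CPM, next 33.0; share 0.860) and Bbc3 (2.23 CPM, next 16.8; share 0.839). CTRL1 is the CTRL library with the highest multi-mapped share of reads. DIR4 stood apart for Sesn2 (131 CPM, next 76.2; share 0.986), above the other 3 DIR libraries and within the CTRL range. SOMC2 stood apart for Plk2 (67.9 CPM, next 51.1; share 0.861), within the range of SOMB and above the 3 SOMA libraries.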

How the results depend on the processing

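Members kept their direction and side of the threshold in 490 of the values under other settings; 35 changed sign, none of them called over all libraries, 30 gained and 25 lost a call. Of those with a changed sign, Bax in DIR versus SOMA was called without CTRL1, DIR1 and DIR2. Values with a changed sign are log2 fold changes. With CTRL1, DIR1 and DIR2 left out they were 0.43 (Bax) and 0.092 (Phlda3) in DIR versus SOMA, 0.12 (Phlda3) in cultured versus fresh, and 0.19 (Bax), -0.036 (Trp53inp1) and 0.020 (Trp53) in DIR versus CTRL; members called higher were 3 in CTRL versus SOMA, 5 in DIR versus SOMA (0 lower) and 1 in DIR versus CTRL. With the multi-mapped share as a term they were -0.17 (Bax) and -0.24 (Phlda3) in CTRL versus SOMA, 0.12 (Bax) in DIR versus SOMA, and 0.34 (Bax), 0.076 (Phlda3), -0.23 (Trp53inp1), 0.10 (Sesn2), 0.83 (Bbc3) and 0.030 (Trp53) in DIR versus CTRL; 3 members were higher in CTRL versus SOMA. With the length and GC trend removed they were 0.35 (Bax) in DIR versus SOMA, 0.20 (Bax), -0.070 (Trp53inp1), 0.027 (Sesn2) and 0.043 (Trp53) in DIR versus CTRL, and 0.015 (Mdm2) and -0.13 (Phlda3) in MUT versus WT; members higher were 5 in CTRL versus SOMA, 1 in DIR versus CTRL and 0 in MUT versus WT. Phlda3 in CTRL versus SOMA turned to -0.011 with DESeq2 and with only the groups compared, and to -0.012 with RLE size factors. In MUT versus WT, Xist as a term gave -0.22 (Phlda3), 0.015 (Pmaip1) and -0.0058 (Plk2), and only low-Xist libraries gave -0.29 (Phlda3) and -0.023 (Plk2), with 0 members higher in both. Bbc3 in SOMD versus SOMA turned to 0.023 with library totals and to 0.014 with nearly identical pairs summed (3 members lower), and Trp53 in DIR versus CTRL to 0.0026 with all 29 libraries.

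Members higher came to 2 with DESeq2 in DIR versus CTRL. With all 29 libraries they were 2 in CTRL versus SOMA, 1 in DIR versus CTRL and 0 in MUT versus WT, and 3 were lower in SOMD versus SOMA. Library totals gave 3 higher and 1 lower in CTRL versus SOMA and 1 lower in DIR versus SOMA; no filter gave 1 and 0 lower in these comparisons; only the groups compared gave 2 higher and 1 lower, and 0 lower. DESeq2 called 1 member lower in MUT versus WT. The causes of these changes were not tested.

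Replicate numbers were not used to pair the samples in the main fits. Correlations of same-numbered deviations ran from -0.28 to 0.07 (CTRL and SOMA), -0.11 to 0.23 (DIR and SOMA), -0.37 to 0.39 (cultured and fresh), -0.72 to 0.83 (DIR and CTRL), -0.25 to 0.43 (SOMD and SOMA) and 0.00 to 0.42 (MUT and WT). Pairs of unlike number in MUT and WT ran from -0.38 to 0.18. CTRL1 had 0.83 with DIR1 and 0.78 with DIR2, all of high multi-mapped share. These values thus cannot decide whether samples of the same number are paired. With the replicate block, Bax was -0.11 and Phlda3 -0.028 in CTRL versus SOMA; members lower were 1 in CTRL versus SOMA, 0 in DIR versus SOMA and 1 in MUT versus WT, and 1 was higher in DIR versus CTRL. The member lower in MUT versus WT was Ccng1 (-0.32, edgeR adjusted p = 0.0447). Ccng1 in DIR versus SOMA lost its call (0.59, adjusted p = 0.0809), and genes called came to 588 higher and 402 lower in CTRL versus SOMA, 1358 and 1081 in DIR versus SOMA, and 272 and 56 in MUT versus WT, with 195 lower in DIR versus CTRL.

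Counts over all genes moved elsewhere too. In DIR versus CTRL (43 higher and 63 lower) they were 207 and 290 with DESeq2, 801 and 681 with all 29 libraries, 105 and 149 without CTRL1, DIR1 and DIR2, 97 and 119 with the share as a term, and 125 and 196 with the trend removed. In MUT versus WT (48 and 1) they were 482 and 228 with DESeq2, 175 and 22 with no filter, 96 and 10 with library totals, 17 and 4 with all 29 libraries, and 18, 1 and 1 higher with the trend removed, Xist as a term and low Xist. In DIR versus SOMA (2933 and 2537) they were 1852 and 1494 with only the groups compared. In CTRL versus SOMA (1836 lower) 2757 to 2803 were lower without the 3 libraries, with the share as a term or with the trend removed. Of the further p53 targets, the block called 4 higher and 0 lower in both comparisons with SOMA, and only the groups compared called 5 higher and 0 lower in DIR versus SOMA and 2 lower in CTRL versus SOMA.

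Leaving out 1 library at a time, members higher ran from 1 to 2 in CTRL versus SOMA, 0 to 1 in DIR versus CTRL and 0 to 1 in MUT versus WT; members lower ran from 1 to 2 in CTRL versus SOMA, 0 to 2 in DIR versus SOMA and 3 to 5 in SOMD versus SOMA. Of the further p53 targets, those lower ran from 2 (without SOMA3) to 4 in CTRL versus SOMA and from 2 (without DIR1 or SOMA3) to 5 (without DIR3) in DIR versus SOMA. Signs changed within -0.064 to 0.24 (Bax) and -0.13 to 0.20 (Phlda3) in CTRL versus SOMA, -0.38 to 0.16 (Bax) in DIR versus SOMA, -0.058 to 0.21 (Bax) in cultured versus fresh, -0.44 to 0.091 (Bax), -0.055 to 0.028 (Trp53) and -0.042 to 0.35 (Trp53inp1) in DIR versus CTRL, -0.12 to 0.13 (Bbc3) in SOMD versus SOMA and -0.083 to 0.29 (Phlda3) in MUT versus WT.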
